A study of Homo sapiens with 2 samples.

Results

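NRF2 and 9 genes of the antioxidant response it governs were followed in HSC-1 cells after knockdown of the long non-coding RNA LINP1. The members were taken from the count table by gene symbol: the transcription factor NFE2L2 (NRF2), its inhibitor KEAP1 and the 8 targets HMOX1, NQO1, GCLC, GCLM, TXNRD1, SRXN1, FTH1 and FTL. All 10 were found among 44591 genes. HSC-1 is an established line of human cutaneous squamous cell carcinoma (cSCC). Cultures received either a control siRNA, siNC, or one directed at LINP1, siLINP1, were kept without serum for a period and were returned to medium with serum before total RNA was taken for sequencing. The series holds 1 library per condition, so no difference below has a replicate check and no p-value was computed. The study sequenced RNA after LINP1 depletion to find the signaling that changes with it. The values below describe the NRF2 genes in those libraries and cannot separate the knockdown from the spread between cultures.

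NRF2 is a basic leucine zipper factor that is made continuously and destroyed continuously, because KEAP1 holds it for ubiquitination by a CUL3 and RBX1 ligase. Oxidants and electrophiles modify cysteines of KEAP1, NRF2 then escapes, pairs with a small MAF protein and binds antioxidant response elements (AREs), from which the repressor BACH1 is displaced. Its targets make glutathione, reduce thioredoxin and quinones, degrade heme and store iron, and keratinocytes use them against ultraviolet light and chemicals. The activity of NRF2 is set largely at the level of the protein, which was not measured here.

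The siNC library held 18829544 counted reads and the siLINP1 library 15383081. Counts were scaled by size factors of 1.08 and 0.930, and a fold change is the scaled siLINP1 count over the scaled siNC count on the log2 scale. Its 95% interval comes from the 2 read counts alone and covers counting error only, not the spread between cultures. A gene was called past 1.5-fold from its fold change, and more strictly when its whole interval lay past 1.5-fold. For LINP1 itself 167 reads were counted in siNC against 23 in siLINP1 (log2 -2.65, -3.35 to -2.02). Of 19 squamous keratinocyte markers, 6 were under 1 RPKM (reads scaled by gene length and library total) in both libraries, namely KRT5, KRT16, TP63, DSG3, PKP1 and CDH1, whereas others were well read, such as ITGB4 with 5990 and 3962 reads and S100A2 with 2038 and 1724. Of 10 mesenchymal markers 2 were under 1 RPKM in both, COL1A2 and COL3A1, while VIM had 61097 and 41992 reads.

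The 10 members spanned levels from 4.89 to 4105 RPKM, and the ferritin pair stood far above the rest. FTH1, the heavy chain of ferritin, had 4105 RPKM in siNC and 2049 in siLINP1, which made it the 3rd and then the 16th most abundant gene per length. FTL, the light chain, had 2017 and 1379.7 RPKM. NQO1 had 76.8 and 60.7 RPKM and TXNRD1 74.7 and 62.4, so these neighbours in the order changed places between the libraries. SRXN1 (29.8 and 32.6), KEAP1 (29.6 and 25.1), NFE2L2 (26.4 and 28.7) and HMOX1 (19.9 and 20.6) formed a middle group, in which KEAP1 was above NFE2L2 in siNC and below it in siLINP1. The glutamate-cysteine ligase subunits were lowest per length, GCLC at 8.41 and 8.25 RPKM and GCLM at 6.04 and 4.89. With 1 library each, no spread between samples is at hand to separate neighbours.

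**Figure D1:**
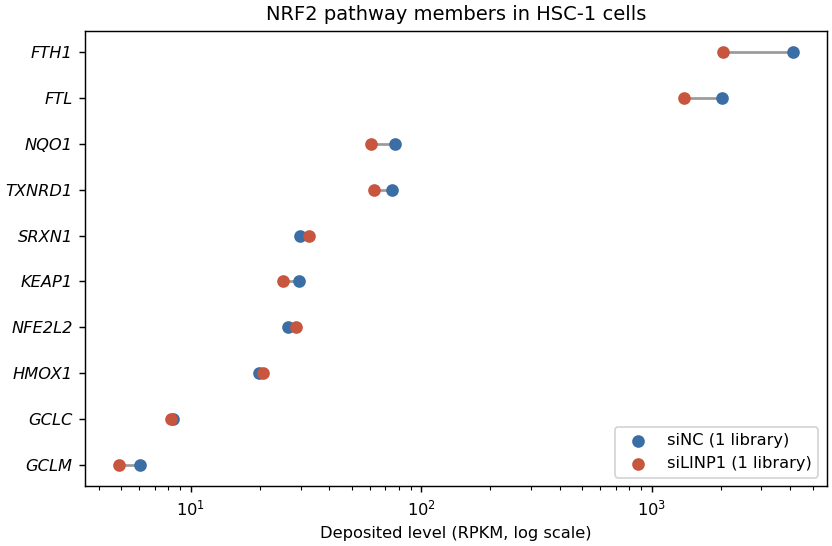
Deposited level of each of the 10 members (RPKM, log axis) in the siNC library (blue) and the siLINP1 library (red), 1 library each, joined by a line. FTH1 (4105 and 2049) and FTL (2017 and 1379.7) lie far to the right of the other 8, and the points of NFE2L2, HMOX1, GCLC and SRXN1 nearly coincide.

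The transcript of NRF2 itself was close to equal in both libraries under the main scaling. NFE2L2 (chr2:178095031-178129859, minus strand, GRCh37/hg19) had 1781 reads in the control and 1583 after knockdown, a difference of 0.04 on the log2 scale (-0.06 to 0.14). Its interval lay above 0 with total counts, at 0.12 (0.02 to 0.22), and with 8 reference genes setting the scale, at 0.28 (0.18 to 0.38). KEAP1 (chr19:10596796-10614054, minus strand), the inhibitor, had 1503 and 1043 reads and was lower in siLINP1 at -0.32 (-0.43 to -0.20). Read against each other within a library, which needs no scaling, NFE2L2 had 1.18 reads per KEAP1 read in siNC and 1.52 in siLINP1, a log2 change of 0.36 (0.21 to 0.51). The interval of KEAP1 held 0 on the reference-gene scale, at -0.08 (-0.19 to 0.04).

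Genes that pair with NRF2, compete with it or turn it over were mostly higher in siLINP1. Of all 19840 genes with at least 10 reads, 9487 were higher and 10350 lower, with a median log2 fold change of -0.02. Of the 12 on this list, 10 were higher and 2 lower, with a median of 0.37. The whole interval lay past 1.5-fold for 3 of them, all higher: MAFF, BACH1 and SQSTM1. Among all genes with at least 10 reads, 3.98% were higher and 2.06% lower by this rule. By the fold alone, 4 of the 12 were higher and 1 lower past 1.5-fold, against 14.4% and 13.0% of those genes. Among genes with at least 500 reads, a depth that all of the 12 but BACH2 (129 reads) reached, the shares were 6.63% and 4.40%.

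MAFF, a small MAF protein that binds AREs as the partner of NRF2 or of BACH1, had 946 reads in siNC and 2014 in siLINP1, 2.46-fold more after scaling (log2 1.30, 1.19 to 1.41). Only 1 of the 200 genes nearest to it in total reads was higher. The other small MAF genes were also higher, MAFG with 1503 and 1804 reads (0.47, 0.37 to 0.57) and MAFK with 1268 and 1455 (0.41, 0.30 to 0.52). Reads of MAFF per read of MAFG went from 0.629 to 1.12, so the composition of the small MAF transcripts differed between the libraries.

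BACH1, the repressor that holds many NRF2 targets down, including HMOX1, had 941 and 1407 reads (log2 0.79, 0.67 to 0.91). Its reads per read of NFE2L2 were 0.528 in siNC and 0.889 in siLINP1, a log2 change of 0.75 (0.60 to 0.90). SQSTM1, an autophagy receptor that binds KEAP1 and is itself an NRF2 target, had 18581 and 25814 reads (0.68, 0.66 to 0.71). Both were higher than NFE2L2 in their difference between the libraries, an order that no scaling changes.

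Of the ligase genes, CUL3, the scaffold that carries KEAP1, had 935 and 913 reads (0.18, 0.04 to 0.31), while RBX1, the RING subunit, had 756 and 423 (-0.63, -0.80 to -0.45). The related factor NFE2L1 had 5728 and 6215 reads (0.33, 0.28 to 0.38) and NFE2L3 had 1204 and 918 (-0.18, -0.31 to -0.06). BTRC, which recognises NRF2 phosphorylated by GSK3B, stood at 0.21 (0.03 to 0.39), and GSK3B at 0.10 (-0.01 to 0.21). RBX1 and NFE2L3 were the 2 genes of this list below 0.

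**Figure D2:**
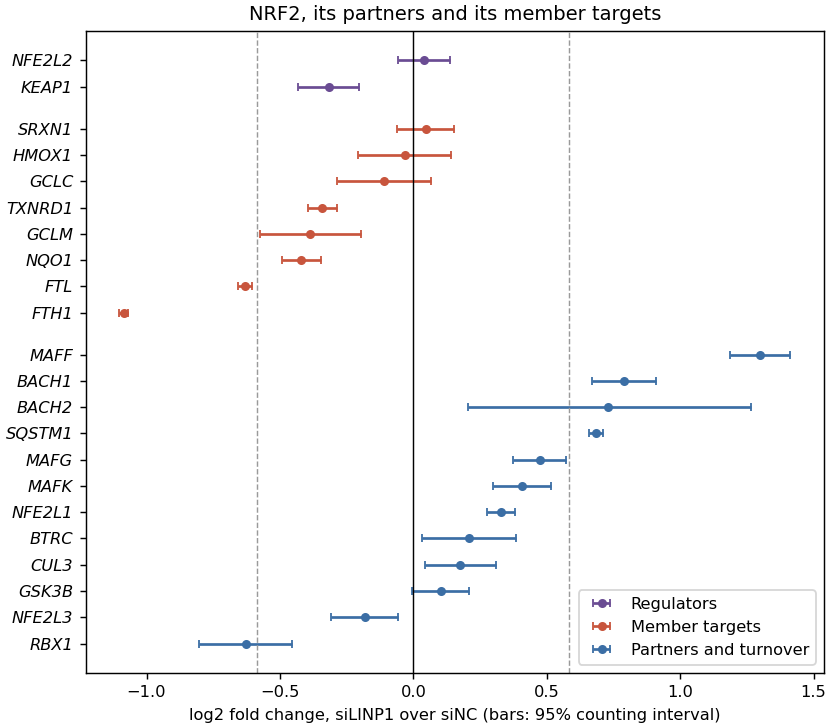
Log2 fold change of siLINP1 over siNC for the regulators, the 8 member targets and the 12 partner and turnover genes, with bars for the 95% counting interval and dashed lines at 1.5-fold. MAFF, BACH1 and SQSTM1 lie wholly to the right of the dashed line, and FTH1 and FTL wholly to the left of the other.

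The 8 targets were lower on balance, and unequally so. Their median log2 fold change was -0.36, and it was -0.12 with 8 reference genes setting the scale. Of the 8, 7 were below 0 and 1 above. Of the 9521 genes with at least 500 reads, 5129 were lower and 4389 higher. Over all 10 members the median was -0.33 against -0.03 over the 9521 genes with at least 500 reads, a depth that every member reached. No member was higher past 1.5-fold (0 of 10, against 6.63% of genes with at least 500 reads) and 2 were lower, FTH1 and FTL (against 4.40%). The same 2 were lower with the whole interval past 1.5-fold, where 1.68% of these genes were lower and 3.84% higher. FTL lost the stricter call under total counts, TMM factors, 8 reference genes, a minimum of 100 reads and coding genes only, and the fold call under total counts (-0.55) and reference genes (-0.39). An interval wholly below 0 was found for 6 members, against 37.7% of such genes, and wholly above 0 for none (0 of 10, against 31.2%), and the intervals of NFE2L2, HMOX1, GCLC and SRXN1 held 0. This tally depended on the scaling: with total counts 6 were below 0 and 2 above (NFE2L2 and SRXN1), and with 8 reference genes 4 were below (NQO1, TXNRD1, FTH1 and FTL) and 3 above (NFE2L2, HMOX1 and SRXN1). In bulk RNA, fewer cells that carry a transcript and less of it per cell cannot be told apart.

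The ferritin genes gave the largest differences among the members before gene length was taken into account. Ferritin is a shell of heavy and light chains, the heavy chain oxidizing iron and the light chain aiding its storage. FTH1 (chr11:61731757-61735132, minus strand) had 95000 reads in siNC and 38740 in siLINP1, a log2 fold change of -1.08 (-1.10 to -1.07) or 2.12-fold lower. It took 0.505% of all counted reads in siNC and 0.252% in siLINP1. FTL (chr19:49468566-49470136, plus strand) had 33083 and 18486 reads, which is a difference of -0.63 on the log2 scale (-0.66 to -0.60) or 1.55-fold lower, and its share went from 0.176% to 0.120%. Both chains were lower in siLINP1, the heavy chain more so.

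The subunit balance of ferritin transcripts also differed. There were 2.87 reads of FTH1 per read of FTL in siNC and 2.10 in siLINP1, a log2 change of -0.45 (-0.49 to -0.42) that does not depend on any scaling. Against each of the other 9 members, FTH1 was lower by a log2 change between -1.13 (SRXN1) and -0.45 (FTL). Relative to GAPDH, which had 124059 and 73563 reads, it was lower by -0.54 (-0.56 to -0.52), and GAPDH itself stood at -0.54.

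The most abundant transcripts were lower as a class in siLINP1, and FTH1 exceeded that. The 200 genes nearest to FTH1 in total reads had a median of -0.32 and a lowest value of -0.98, so 0 of the 200 were as low as FTH1. FTL had 6 of its 200 neighbours below it. For the other members lower in siLINP1, more neighbours were lower still: 21 of 200 for NQO1, 26 for KEAP1, 32 for GCLM and 36 for TXNRD1.

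**Figure D3:**
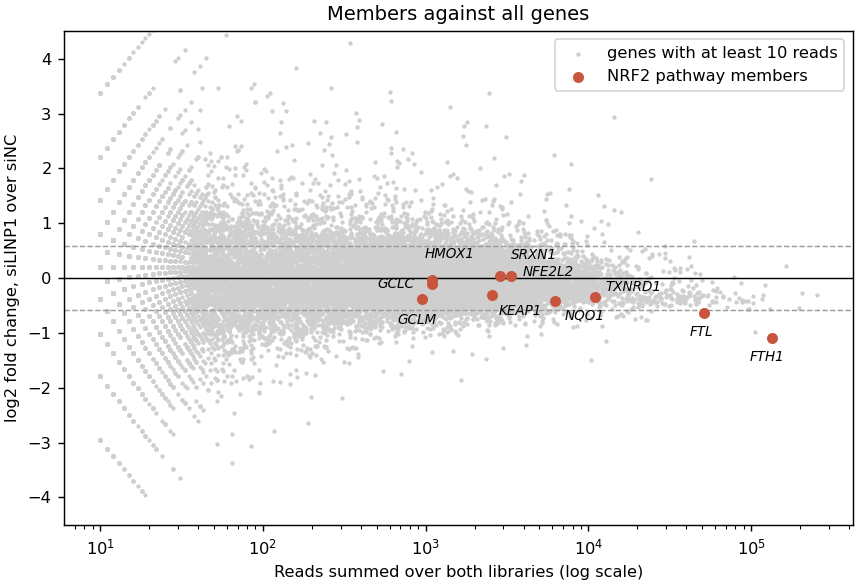
Log2 fold change of siLINP1 over siNC against the reads summed over both libraries (log axis) for genes with at least 10 reads (grey) and the 10 members (red), with dashed lines at 1.5-fold. The axis ends at 4.5 on either side and the 45 genes with no read in 1 library are not drawn. FTH1 at -1.08 lies below every gene near it in reads, and the other members lie within the cloud.

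Fold change also moved with gene length, and both ferritin genes are short. Over coding genes with at least 500 reads, the median log2 fold change was -0.36 for lengths up to 900 bases, where FTL falls at 871 bases, and -0.27 from there to 1300 bases, where FTH1 falls at 1229. It was 0.09 for genes over 6000 bases. Less the median of its length class, FTH1 stood at -0.82 and FTL at -0.27, which put FTL closer to 0 than GCLM, NQO1 and TXNRD1. In the class of FTH1, 1 of 413 genes was lower than it, HEBP1, whereas 21 of the 250 genes in the class of FTL were lower than FTL. The remaining members were less affected, with NQO1 at -0.36, GCLM at -0.40, TXNRD1 at -0.36, KEAP1 at -0.25, HMOX1 at 0.12, SRXN1 at 0.11, NFE2L2 at 0.06 and GCLC at -0.09 on this scale.

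Ferritin copies held few reads beside their parents. Ferritin genes have many processed pseudogenes, and reads can be split among near-identical copies. The 21 FTH1 pseudogenes in the table held 236 reads in the control and 106 after knockdown, equal to 0.248% and 0.274% of those on FTH1, and no copy reached 100 reads. The 10 FTL pseudogenes held 1 and 2 reads. With the copies added, the log2 fold changes were again -1.08 and -0.63. BEST1 overlaps FTH1 on the opposite strand over 179 bases and had 76 and 139 reads, and how reads in the overlap were assigned is not given in the sources used here.

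The ligase that makes the first product of glutathione synthesis differed in its modifier subunit. GCLM (chr1:94350755-94375154, minus strand), the modifier, had 574 reads in siNC and 380 in siLINP1, a log2 fold change of -0.39 (-0.58 to -0.20). GCLC (chr6:53362139-53409927, minus strand), the catalytic subunit, had 604 and 484 reads, at -0.11 (-0.29 to 0.06). Reads of GCLC per read of GCLM went from 1.05 to 1.27, a log2 change of 0.28 (0.02 to 0.53). With 8 reference genes setting the scale, GCLC lay above 0, at 0.13 (-0.05 to 0.31), and the interval of GCLM held 0, at -0.15 (-0.34 to 0.04).

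Other genes of glutathione synthesis, use and export gave a median of -0.20 over the 26 of 28 with at least 10 reads, a direction that turned to 0.04 when 8 reference genes set the scale. No gene of this list had its whole interval past 1.5-fold, against 3.98% higher and 2.06% lower of genes with at least 10 reads. The whole interval was below 0 for 12 and above 0 for 5. Among all genes with at least 10 reads the shares were 25.6% and 23.0%, and with at least 500 they were 37.7% and 31.2%. The transferase GSTP1 had 6179 and 4200 reads (-0.35, -0.40 to -0.29), and GPX4, which reduces lipid hydroperoxides, had 2458 and 1581 (-0.43, -0.52 to -0.34). The cystine transporter subunits were higher, SLC7A11 with 1167 and 1158 reads (0.20, 0.08 to 0.32) and its partner SLC3A2 with 9865 and 12262 (0.52, 0.48 to 0.56). GSTO1, another glutathione-using enzyme, was higher too, at 1989 and 1905 reads (0.15, 0.06 to 0.24), so the list held both directions.

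NQO1 (chr16:69743304-69760571, minus strand), the quinone reductase often used as a readout of NRF2, had 3800 reads in siNC and 2456 in siLINP1, a log2 fold change of -0.42 (-0.49 to -0.35) or 1.34-fold lower. It stayed below 0 under each scaling tried, from -0.42 to -0.18. Against HMOX1 in the same library it was lower by -0.39 (-0.57 to -0.20), so these classical targets did not move alike.

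The list of quinone, carbonyl and xenobiotic enzymes had the lowest median of the pathway lists, -0.48 over 14 of 15 genes. Of these, 12 were lower and 2 higher, against 10350 and 9487 of all 19840 genes with at least 10 reads. It was -0.40 after the length class medians were taken off. The whole interval lay past 1.5-fold below for 3 genes and above for 1, OSGIN1, against 2.06% and 3.98% of all genes kept. The 3 lower genes were the aldo-keto reductases AKR1C1, AKR1C2 and AKR1C3, which are NRF2 targets in human cells. AKR1C2 had 146 and 38 reads (-1.73, -2.29 to -1.21), AKR1C3 had 417 and 196 (-0.88, -1.13 to -0.63) and AKR1C1 had 58 and 18 (-1.48, -2.33 to -0.69). These genes are neighbours of similar sequence, so reads may be split among them and they are uncertain as 3 separate differences. AKR1B1, which reduces aldehydes, had 3970 and 2225 reads (-0.63, -0.70 to -0.55), and CBR1, a carbonyl reductase, 1475 and 825 (-0.63, -0.75 to -0.50).

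OSGIN1, an NRF2 target named for its response to oxidative stress, went the other way with 448 reads in siNC and 906 in siLINP1 (1.23, 1.06 to 1.39). Only 1 of its 200 neighbours in reads was higher.

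In the thioredoxin branch the reductase was lower relative to sulfiredoxin. TXNRD1 (chr12:104609557-104744085, plus strand), which reduces thioredoxin with NADPH, had 6483 reads in siNC and 4427 in siLINP1, a log2 fold change of -0.34 (-0.40 to -0.29). SRXN1 (chr20:627259-634014, minus strand), which repairs over-oxidized peroxiredoxins, had 1513 and 1351 reads, at 0.05 (-0.06 to 0.15). With 8 reference genes setting the scale, TXNRD1 stood at -0.10 (-0.16 to -0.05) and SRXN1 at 0.29 (0.18 to 0.39), and with total counts SRXN1 was at 0.13 (0.02 to 0.24). Reads of TXNRD1 per read of SRXN1 went from 4.28 to 3.28, a log2 change of -0.39 (-0.51 to -0.27). An antisense gene within TXNRD1 had 65 and 16 reads and a pseudogene on its strand 90 and 58, small beside its own. Antisense genes overlapping NQO1 (64 and 43 reads) and NFE2L2 (35 and 24) were also sparsely read, and without the strand setting such reads cannot be told apart from those of the members.

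PRDX1, a peroxiredoxin that scavenges hydrogen peroxide and is an NRF2 target, was the lowest of the thioredoxin and peroxiredoxin genes. It had 7915 reads in siNC and 2431 in siLINP1, a log2 fold change of -1.49 (-1.56 to -1.43) or 2.82-fold lower. Of its 200 neighbours in reads, 0 were lower, and less the median of its length class it stood at -1.34. Its pseudogene in the table had 12 and 6 reads. Reads of PRDX1 per read of its relative PRDX2 went from 2.76 to 1.30, a log2 change of -1.09 (-1.19 to -0.98).

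The rest of that list lay closer to 0, with TXN, the substrate of TXNRD1, at 3860 and 2289 reads (-0.54, -0.62 to -0.47) and PRDX4, the peroxiredoxin of the endoplasmic reticulum, higher at 642 and 794 (0.52, 0.36 to 0.67). Over the 13 genes the median was -0.15, and it was 0.09 with 8 reference genes setting the scale. The whole interval was below 0 for 8 and above 0 for 2. Among all genes with at least 10 reads the shares were 25.6% and 23.0%, and with at least 500 they were 37.7% and 31.2%.

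HMOX1 was close to even in both libraries. HMOX1 (chr22:35777060-35790207, plus strand), the inducible heme oxygenase, had 595 reads in siNC and 503 in siLINP1, a log2 fold change of -0.03 (-0.21 to 0.14). Its direction depended on the scaling, since it was 0.21 (0.03 to 0.38) with 8 reference genes setting the scale. Its constitutive relative HMOX2 had 1336 and 1317 reads (0.19, 0.08 to 0.30), and BLVRA, which reduces the biliverdin that heme oxygenase makes, 623 and 397 (-0.44, -0.63 to -0.26).

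Genes of heme and iron handling other than ferritin and HMOX1 had a median of -0.00 over 15 of 18. Of these, 6 had an interval wholly below 0 and 3 wholly above, against 25.6% and 23.0% of genes with at least 10 reads and 37.7% and 31.2% of those with at least 500. TFRC, the transferrin receptor, whose transcript is stabilised where iron is scarce while ferritin translation is held back, had 3236 and 2641 reads (-0.08, -0.16 to -0.01). Reads of FTH1 per read of TFRC went from 29.4 to 14.7. NCOA4, which carries ferritin to autophagy, had 2070 and 2080 reads (0.22, 0.13 to 0.30). STEAP3, a reductase of endosomal iron, was the 1 gene of the 15 with its whole interval past 1.5-fold, with 472 and 200 reads (-1.03, -1.28 to -0.79). By this rule 3.98% of all genes with at least 10 reads were higher and 2.06% lower. Macrophages and erythroid cells are rich in ferritin and heme genes. Of 10 macrophage markers, 8 were under 1 RPKM in both libraries and their summed reads were 1793 in siNC and 1509 in siLINP1, of which CD68 held 1702 and 1307 (48.7 and 45.8 RPKM). Of the 6 macrophage markers with at least 10 reads, 2 were higher in siLINP1 and 4 lower. The higher ones were ITGAM, with 12 and 148 reads (0.134 and 2.03 RPKM), and CD163, with 2 and 17. The lower ones were CD68, CSF1R with 31 and 11 reads, LYZ with 28 and 11, and CD14 with 12 and 3. Of 7 erythroid markers, 5 had no read in either library, and the summed reads were 7 and 2. The part of other cell types in the ferritin values was not tested.

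Enzymes that supply NADPH to these reductases were lower for 5 of 6, with a median of -0.31 that remained below 0, at -0.07, with 8 reference genes setting the scale. Of the 9521 genes with at least 500 reads, a depth that all 6 reached, 5129 were lower and 4389 higher. TALDO1, the transaldolase, had 1780 and 1126 reads (-0.45, -0.56 to -0.34), and ME1, the malic enzyme, was the exception at 585 and 655 (0.37, 0.21 to 0.54). Of the superoxide dismutases, cytosolic SOD1 had 2129 and 1314 reads (-0.49, -0.59 to -0.39) and mitochondrial SOD2 had 965 and 1052 (0.33, 0.21 to 0.46). On the list of superoxide dismutases and catalase the median was -0.39. Of its 4 genes, 3 were lower and 1 higher, against 10350 and 9487 of all 19840 genes with at least 10 reads. No gene of either list had its whole interval past 1.5-fold, against 3.98% higher and 2.06% lower of genes with at least 10 reads.

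**Figure D4:**
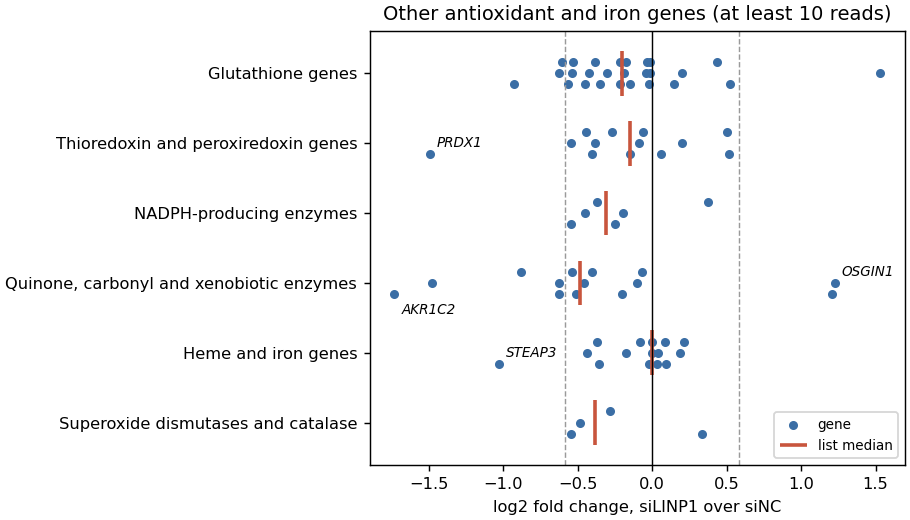
Log2 fold change of siLINP1 over siNC for each gene with at least 10 reads on 6 lists of antioxidant and iron genes that hold no member (points), with the list median (red bar) and dashed lines at 1.5-fold. The medians run from -0.48 for quinone, carbonyl and xenobiotic enzymes to -0.00 for heme and iron genes, and PRDX1, AKR1C2 and OSGIN1 lie farthest out among the labelled genes.

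Over all 7 lists of other pathway genes, 90 of 96 had at least 10 reads. Of these, 60 were lower and 30 higher, against 10350 and 9487 of all 19840 genes with at least 10 reads. The median of the 90 was -0.17, a direction that also turned when 8 reference genes set the scale. The whole interval lay past 1.5-fold for 4 higher and 5 lower, against 3.98% and 2.06%. It lay below 0 for 44 of the 90 and above 0 for 22. Among all genes with at least 10 reads the shares were 25.6% and 23.0%, and with at least 500 they were 37.7% and 31.2%. Less the length class medians, the median of the 90 was -0.07, with 53 lower and 37 higher. That median lay closer to 0 than before.

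Since AREs lie near many NRF2 targets, the letters TGACNNNGC, the core of the element, were searched on both strands of the RefSeq promoter windows, 250 bases before to 50 after each start in GRCh38.p14. Windows were found for 8 of the 10 members, 11 windows in all. HMOX1 and FTH1 were not matched. The core was found in 4 windows of 3 members, GCLM, TXNRD1 and KEAP1, against 13.3% of all 35116 windows and 16.1% of all 27305 genes. The matches are shown with 20 bases on either side, in the direction of the gene and with the core in capitals. They show how the letters read on either strand. These 3 members were lower in siLINP1 under the main scaling, but with 8 reference genes the intervals of GCLM and KEAP1 held 0. Whether a match is a working element, or bears on the fold changes, was not tested. In GCLM the core starts 34 bases upstream of the start, on the opposite strand, at chr1:93909436-93909484 (minus strand). In TXNRD1 it starts 99 bases upstream of one start on the gene's own strand, at chr12:104215660-104215708 (plus strand), and 102 bases upstream of another on the opposite strand, at chr12:104286910-104286958 (plus strand). A further match of TXNRD1, 8 bases upstream of the first of these starts, is not shown. KEAP1 has it 54 bases upstream on its own strand, at chr19:10502797-10502845 (minus strand), and 31 bases upstream on the opposite strand, at chr19:10502774-10502822.
GCLM: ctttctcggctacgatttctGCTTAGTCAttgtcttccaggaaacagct
TXNRD1, first start: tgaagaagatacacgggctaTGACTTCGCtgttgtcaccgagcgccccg
TXNRD1, other start: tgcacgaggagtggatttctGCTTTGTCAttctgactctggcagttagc
KEAP1, own strand: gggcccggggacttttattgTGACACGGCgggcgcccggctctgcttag
KEAP1, opposite strand: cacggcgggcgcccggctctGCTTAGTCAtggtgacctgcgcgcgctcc

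The opposite-strand matches of GCLM and KEAP1 share the same 9 letters, GCTTAGTCA. NFE2L2, NQO1, GCLC, SRXN1 and FTL had no match in their windows, which says only that these letters are not in them, and of these NQO1 and FTL were lower in siLINP1 while the others were close to even. The AP-1 site TGANTCA, searched on both strands, was in none of the member windows and in 7.71% of all windows.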

How the data were processed

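RNA-seq of 1 siNC and 1 siLINP1 library of HSC-1 cells was analysed. According to the study's methods, an Illumina HiSeq was used, Tophat2 placed the reads on GRCh37/hg19, and HTSeq was run on the alignments. The submitters' processing notes also list HISAT, HISAT2 and Bowtie2. Versions, annotation, counting mode, strand setting and the siRNA oligo sequenced are not given in the sources used here. The deposited values are raw read counts per gene, and the authors' RPKM values equal the count divided by gene length and by the library's counted reads. The 12 other per-sample columns were not used.

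Size factors were the median of ratios over genes with a read in both libraries, and a gene needed 10 reads over the pair of libraries to be kept. Intervals (95%, Clopper-Pearson) were computed on the fraction of a gene's reads that came from siLINP1 and converted to folds. Those of ratios between genes combine the errors of the 4 counts. With 1 library per condition no test was made, and leaving out a replicate was not possible.

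The members and lists were chosen with earlier results of these data known. Genes named were the 10 members, LINP1 and list genes whose whole interval lay past 1.5-fold. Further example genes were picked with their values in view. The 3 alternatives of scaling were total counts, TMM factors and 8 reference genes. Further alternatives were minimums of 1 and 100 reads, coding genes only, pseudocounts of 1 and 5, ferritin pseudogene reads added and, chosen after the data were examined, removal of the length class median. The calculations were tested on simulated data. Software was R 4.3.3 with edgeR 4.0.16 (TMM factors only) and Python 3.11.15 with scipy 1.17.1, pandas 2.3.3, numpy 2.4.6 and matplotlib 3.10.9. Promoter windows are from RefSeq on GRCh38.p14, and no coordinate was carried between builds.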

Additional observations from a re-analysis of the deposited data

How the results depend on the processing

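No direction of a called member was reversed. FTH1 stayed below 0 under every alternative, from -1.08 to -0.82, and FTL from -0.63 to -0.27. FTL left the call on the whole interval under total-count scaling (-0.55), TMM (-0.60), 8 reference genes (-0.39), a minimum of 100 reads (-0.60) and coding genes only (-0.60), so that 1 member was lower by that rule in place of 2. By the fold alone, 1 member was lower under total-count and under reference-gene scaling. Reference-gene scaling moved the median of all genes from -0.02 to 0.22, and each gene's distance from that median was unchanged. On that scale the median was 0.040 for glutathione genes and 0.24 for heme and iron genes, and 4694 genes were higher and 1486 lower past 1.5-fold, against 2863 and 2573. Total-count scaling gave 3314 and 2069. The counts of all genes also moved with a minimum of 1 read (7048 higher, 6456 lower), of 100 reads (1266 and 788) and with coding genes only (1673 and 1346). HMOX1 and GCLC were above 0 in 3 and 1 of their 10 settings. Of the alternative values for counts and list medians, 99 stayed within the range taken as the same and 17 moved. For the fold changes of members, 70 stayed and 22 moved. A value within that range could still change sign, as the thioredoxin and peroxiredoxin median did, from -0.15 to 0.09 with 8 reference genes. Pseudocounts and a minimum of 1 read could hardly change well-read genes, so many values that stayed were close to fixed beforehand. Differences under about 0.2 on the log2 scale for members with some 500 reads per library lie within counting error, and the spread between cultures is unknown. No paired analysis was possible because there is 1 library per condition.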
